A study of Mus musculus with 24 samples.

Results

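A set of 9 genes of the p53 pathway was followed through CUT&RUN peak lists of 2 mouse melanoma lines: p53 itself (Trp53), its inhibitors Mdm2 and Mdm4, and the target genes Cdkn1a, Ccng1, Sesn2, Bax, Bbc3 and Zmat3. The 9 were chosen by name, from 21896 protein-coding genes of the RefSeq gene table for GRCm38.p6, the assembly of mm10. Peaks were assigned by position, either within 1 kb of an end of the gene (a gene-end peak) or within the gene plus 20 kb on each side (its locus). Those loci held 182 of the 197727 peaks in the 22 lists.

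CUT&RUN uses an antibody to bring a nuclease to its target in permeabilised cells, and the fragments cut free there are sequenced. Kmt2d Mutant 493 is a melanoma line with a mutation in Kmt2d, and 12 lists came from it. Kmt2d WT 971 is a melanoma line that is wild type for Kmt2d, and 10 lists came from it. The medium was DMEM/F12 plus FBS for both lines, and the nature of the mutation was not given in the sources used here. Both lines had a list for 9 targets: H3K4me3, Menin, UTX, ARID1A, SMARCC1, ARID2, PBRM1, BRD9 and TFAP2A. TFAP2B and SOX10 (2 antibodies, T and U) were profiled in the mutant line, and KMT2D in the WT line. Each line and target had 1 library and each genotype 1 line, so no difference between lines had a replicate check, none was tested, and line and genotype cannot be told apart. Neither p53 binding nor RNA was analysed here, and the p53 status of the lines was not given in the sources used here.

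The depth at which each list was called was inferred from the fold enrichment and p of its summits and its shortest peak. It was not counted from reads and can differ from the number of fragments sequenced. By this estimate the mutant lists were called at depths of 0.405 to 2.21 M fragments (M for mega), and the WT lists at 0.862 to 1.2 M. The mutant to WT ratio was 0.394 for SMARCC1 and ran between 1.58 and 2.37 for the other 8 paired targets. Most counts set between the lines are also given with the deeper list of a pair scaled to the depth of the other (equal depth) where that changes them. None of the 182 peaks lay in a region called in 15 or more lists. Of 7 melanocyte lineage markers, 3 had gene-end H3K4me3 in the mutant line (Mitf, Pmel, Sox10) and 2 in the WT line (Mitf, Pmel), while Tyr, Tyrp1, Dct and Mlana had none in either. Of 5 fibroblast markers, 3 were marked in each line (Col1a1, Pdgfra, Pdgfrb). Krt10 was marked of 3 keratinocyte markers and Kdr of 3 endothelial markers, in both lines, and none of 3 blood cell markers. Over all genes gene-end H3K4me3 was at 53.8% in the mutant line and 49.3% in the WT line. The marker counts are a description and do not identify a cell type.

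The p53 protein is a transcription factor that is stabilised by DNA damage and other stress and switches on genes for cell-cycle arrest, repair and cell death. MDM2 is a ubiquitin ligase that marks p53 for degradation, and MDM4 is a relative that holds its activity down; Mdm2 is itself a p53 target, which closes a feedback loop. In melanoma the pathway is often held down through such regulators rather than by loss of the gene. H3K4me3 marks active promoters. KMT2D is a methyltransferase of histone H3 lysine 4 that acts mainly at enhancers in a complex with the demethylase UTX, while Menin belongs to the related KMT2A and KMT2B complexes. ARID1A, ARID2, PBRM1, BRD9 and SMARCC1 are subunits of SWI/SNF nucleosome remodellers, and TFAP2A, TFAP2B and SOX10 are transcription factors of the neural crest and melanocyte lineage.

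The 5 promoter sequences below are shown because the lists place peaks at these starts, or, at Cdkn1a, at one start and not the other. They are the 250 bases before the annotated start, 5′ to 3′ in gene direction, from RefSeq (GRCm38.p6). Capitals mark matches to the TFAP2 motif GCCNNNGGC (which reads the same on both strands) or to the p53 half-site.
Trp53 start, chr11:69580109-69580358, plus strand, 1 half-site: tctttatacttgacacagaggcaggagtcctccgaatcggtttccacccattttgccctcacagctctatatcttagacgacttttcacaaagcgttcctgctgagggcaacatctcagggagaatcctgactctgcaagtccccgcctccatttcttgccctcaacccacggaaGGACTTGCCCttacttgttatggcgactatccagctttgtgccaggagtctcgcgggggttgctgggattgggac
Mdm2 start, chr10:117710759-117711008, minus strand, 1 half-site and then 1 TFAP2 match: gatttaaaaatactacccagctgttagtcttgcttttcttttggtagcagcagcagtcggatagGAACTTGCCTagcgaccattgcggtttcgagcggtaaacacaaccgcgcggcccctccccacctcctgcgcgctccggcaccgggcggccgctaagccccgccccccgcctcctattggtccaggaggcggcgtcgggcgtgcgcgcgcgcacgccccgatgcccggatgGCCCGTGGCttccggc
Cdkn1a first start, chr17:29090729-29090978, plus strand, 2 half-sites: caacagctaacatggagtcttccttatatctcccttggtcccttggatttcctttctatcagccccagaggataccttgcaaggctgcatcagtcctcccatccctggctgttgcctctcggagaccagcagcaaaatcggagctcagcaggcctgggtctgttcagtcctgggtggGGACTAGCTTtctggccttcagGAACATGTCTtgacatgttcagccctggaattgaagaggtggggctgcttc
Cdkn1a second start, chr17:29093519-29093768, plus strand, no match: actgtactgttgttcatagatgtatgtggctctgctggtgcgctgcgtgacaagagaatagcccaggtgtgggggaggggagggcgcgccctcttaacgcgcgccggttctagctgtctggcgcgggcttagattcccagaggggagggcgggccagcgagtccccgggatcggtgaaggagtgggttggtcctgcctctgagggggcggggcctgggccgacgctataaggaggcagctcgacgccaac
Bbc3 first start, chr7:16309333-16309582, plus strand, 1 TFAP2 match: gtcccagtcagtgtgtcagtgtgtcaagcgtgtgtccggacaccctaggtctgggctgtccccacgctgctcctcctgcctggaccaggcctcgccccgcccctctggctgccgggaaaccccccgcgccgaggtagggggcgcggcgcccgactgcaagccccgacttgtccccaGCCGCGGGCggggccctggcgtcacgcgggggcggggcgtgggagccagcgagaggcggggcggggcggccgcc

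The promoter table held 12 starts of 8 of the genes; Zmat3 had no entry. A p53 half-site, searched on both strands, lay before 5 of the 12 starts (Trp53, Mdm2, the first start of Cdkn1a, Ccng1 and Bax), and 6.31% of all 21262 promoters in the table hold one in the same 250 bases. The first Cdkn1a start was the only one of the 12 with 2 half-sites within 13 bases of each other, an arrangement found in 10 promoters of the table (0.047%). The TFAP2 motif lay before 4 starts, that of Mdm2 and the 3 of Bbc3, against 16.3% of all promoters. These matches describe the letters and do not show that a protein binds there.

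H3K4me3 stood at the gene ends of the same 7 genes in both lines (Trp53, Mdm2, Ccng1, Sesn2, Bax, Bbc3 and Zmat3), beside 53.8% of all genes in the mutant line and 49.3% in the WT line. Mdm4 and Cdkn1a had no gene-end peak in any of the 22 lists, and their marked start lies inside the annotated gene. Counted at annotated starts instead, all 8 genes with a start in the table carried H3K4me3 in both lines, against 56.2% of 17491 genes in the mutant line and 52.1% in the WT line. At those starts Menin was at 7 of 8 in the mutant line and 5 in the WT line (40.7% of genes in the mutant line and 33.7% in the WT line), and TFAP2A at 7 in the mutant line and 6 in the WT line (35.9% in the mutant line and 26.2% in the WT line). TFAP2B was at 6 in the mutant line (23.5%), and ARID1A at 5 in the mutant line and 1 in the WT line (21.5% in the mutant line and 15.8% in the WT line). At equal depth Menin was at 6 of these starts in the mutant line (33.5% of genes), without Bbc3. The member counts of H3K4me3, TFAP2A and ARID1A at starts were the same. Their shares of genes in the mutant line were then 55.8% for H3K4me3, 30.3% for TFAP2A and 19.6% for ARID1A. Gene-end H3K4me3 in 1 line only was found at no member, beside 5.09% of all genes with it in the mutant line only and 0.543% in the WT line only.

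Menin had a gene-end peak at the same 7 genes in the mutant line (37.9% of all genes), at Bax near the 3′ end and not at the end with H3K4me3, and at 5 in the WT line (31.5%), Bax and Bbc3 being without. Among the 10665 genes with gene-end H3K4me3 in both lines, the 7 members included, these shares were 76.2% in the mutant line and 63.8% in the WT line. Bax and Bbc3, with Menin in the mutant line only, stand beside 8.28% of all genes, with 1.92% the other way round. At equal depth both mutant calls were lost and no member had Menin in 1 line only, beside 4.75% of all genes with it in the mutant line only and 5.09% in the WT line only. TFAP2A was at 5 gene ends in the mutant line (Trp53, Mdm2, Sesn2, Bax and Bbc3; 34.0% of all genes) and at 4 in the WT line (all of these but Sesn2; 24.6%), which among genes with H3K4me3 in both lines were 65.1% in the mutant line and 48.3% in the WT line. Sesn2 stands beside 10.6% of all genes with TFAP2A in the mutant line only, and no member beside 1.2% in the WT line only. At equal depth Sesn2 kept its TFAP2A peak, and these shares were 6.56% in the mutant line only and 2.54% in the WT line only. TFAP2B, in the mutant line, was at 4 (Trp53, Mdm2, Bax and Bbc3; 21.9% of all genes, 43.2% of those with H3K4me3 in both lines). UTX was at 2 in the mutant line (Trp53 and Sesn2; 8.86%) and at 2 in the WT line (Trp53 and Bax; 11.1%), or 17.1% in the mutant line and 21.3% in the WT line of the genes with H3K4me3 in both. Sesn2 had it in the mutant line only (2.14% of all genes) and Bax in the WT line only (4.38%). The Sesn2 call was lost at equal depth, where 1.43% of all genes had UTX in the mutant line only and 5.06% in the WT line only. KMT2D, in the WT line, was at 3 (Trp53, Sesn2 and Bax; 10.1%, or 19.8% of the genes with H3K4me3 in both lines). PBRM1 was at Trp53 alone in each line (2.03% of all genes in the mutant line and 1.9% in the WT line).

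Of the 9 paired targets, ARID1A had the widest gap between lines in gene-end calls at these genes. It had a gene-end peak at 5 of them in the mutant line (Trp53, Mdm2, Sesn2, Bax and Bbc3; 20.9% of all genes) and at Bbc3 alone in the WT line (15.7%); of the genes with H3K4me3 in both lines it marked 38.9% in the mutant line and 29.1% in the WT line. The 4 genes with ARID1A in the mutant line only stand beside 7.94% of all genes, or 6.88% at equal depth, where all 4 kept their peak. No member had ARID1A in the WT line only (2.76%, or 3.48% at equal depth). All 4 genes have gene-end H3K4me3 in both lines. The share in 1 line only was not counted among such genes, for ARID1A or for the targets above. The other subunits had few peaks here. SMARCC1, a subunit of all forms of the remodeller, had no gene-end peak at any member in the mutant list (0.598% of all genes) or in the WT list (2.72%). ARID2 (0.932% of all genes in the mutant line, 0.986% in the WT line) and BRD9 (0.0183% in the mutant line, 0.21% in the WT line) had none either. The 2 SOX10 lists of the mutant line also had none (0.932% of all genes with antibody T and 3.83% with antibody U).

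**Figure D1:**
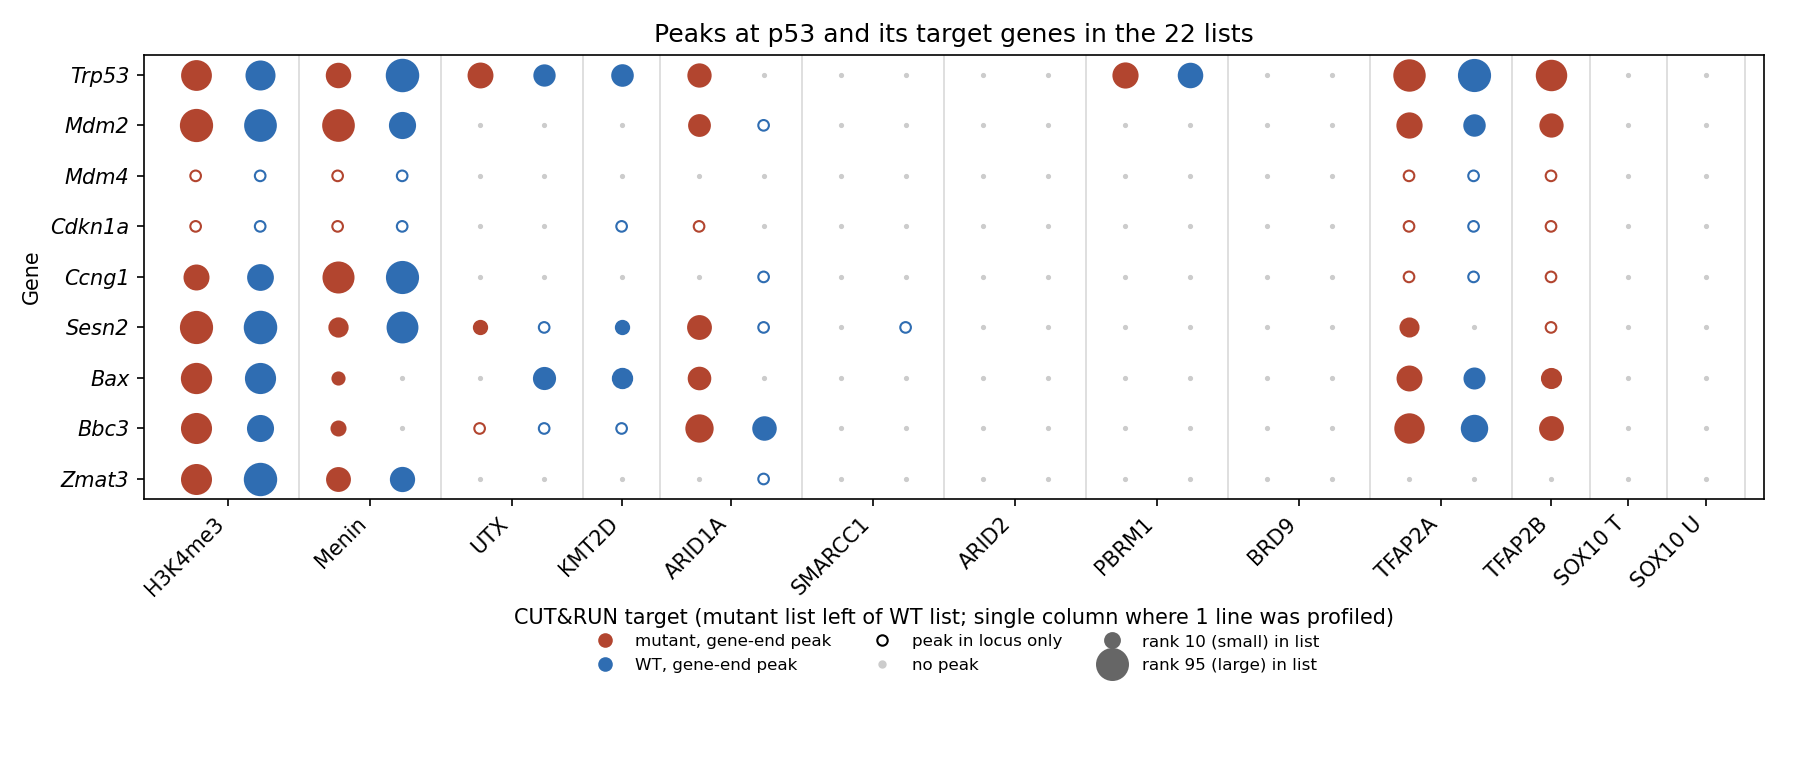
Each row is a gene and each column a peak list, mutant (red) left of WT (blue) for each target; filled circles are gene-end peaks, open circles peaks elsewhere in the locus, and grey dots no peak, with a larger filled circle for a higher rank of fold enrichment among the genes with a gene-end peak in that list. H3K4me3 fills the same 7 rows in both lines, ARID1A fills 5 rows in the mutant line and 1 in the WT line, and the Mdm4 and Cdkn1a rows hold open circles only.

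Strength is given below as the authors' fold enrichment at the summit, and as a rank, its percentile among the peaks of the same list. Tied peaks share the mean of their ranks. Fold enrichment is compared only within a list. Positions are in bp along the direction of the gene from its first annotated start, negative upstream.

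Trp53 (chr11:69580348-69591873, plus strand) had peaks in 13 of the 22 lists, more than any other member. Its start lies at the end of the neighbouring gene Wrap53, so peaks here cannot be assigned to 1 of the 2 genes. H3K4me3 ran as 1 peak from −2593 to 2405 bp in the mutant line, with a fold enrichment of 32.0 (rank 87.3). In the WT line the same stretch held 2 peaks with fold enrichments of 18.6 (rank 80.0) and 19.5 (rank 82.9). Most factor peaks lay over 2 points inside this domain (UTX summits at −1056 and 1063 bp in the mutant line, −1056 and 1062 bp in the WT line), and the 2 points differed in what they held.

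At the downstream point, inside the gene, TFAP2A ranked high in both lists. Its fold enrichment was 41.6 in the mutant line (rank 95) and 45.2 in the WT line (rank 97.3). UTX peaked at 1063 bp in the mutant line (fold enrichment 7.83, rank 55.5) and at 1062 bp in the WT line (5.12, rank 9.65). PBRM1, a subunit of the polybromo form of the remodeller, peaked at 1055 bp in the mutant line (9.19, rank 59.0) and at 1033 bp in the WT line (8.32, rank 49.6). Menin peaked there at 1075 bp in the mutant line and 1072 bp in the WT line, 3 bp apart, but at very unequal rank. It was an ordinary peak in the mutant list (7.68, rank 61.5) and among the strongest of the WT list (22.2, rank 99.2). The mutant line had 5 Menin peaks over the domain that covered 2888 bp, and the WT line 1 peak of 987 bp. Of the 5, the one from −2191 to −1749 bp was lost at equal depth.

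At the upstream point the WT line had KMT2D (summit at −1001 bp, fold enrichment 8.32, rank 43.1) and UTX (−1056 bp, 8.15, rank 38.7). The mutant line had UTX there with the summit at the same base, −1056 bp, but among the weakest peaks of its list (3.48, rank 2.51), and it was lost at equal depth. The mutant line also had ARID1A (7.21, rank 32.9), TFAP2A (17.0, rank 78.4), TFAP2B (15.1, rank 83.0) and Menin (8.25, rank 66.6) at this point. The WT lists of ARID1A, TFAP2A and Menin had no peak there, and the 3 mutant peaks remained at equal depth.

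**Figure D2:**
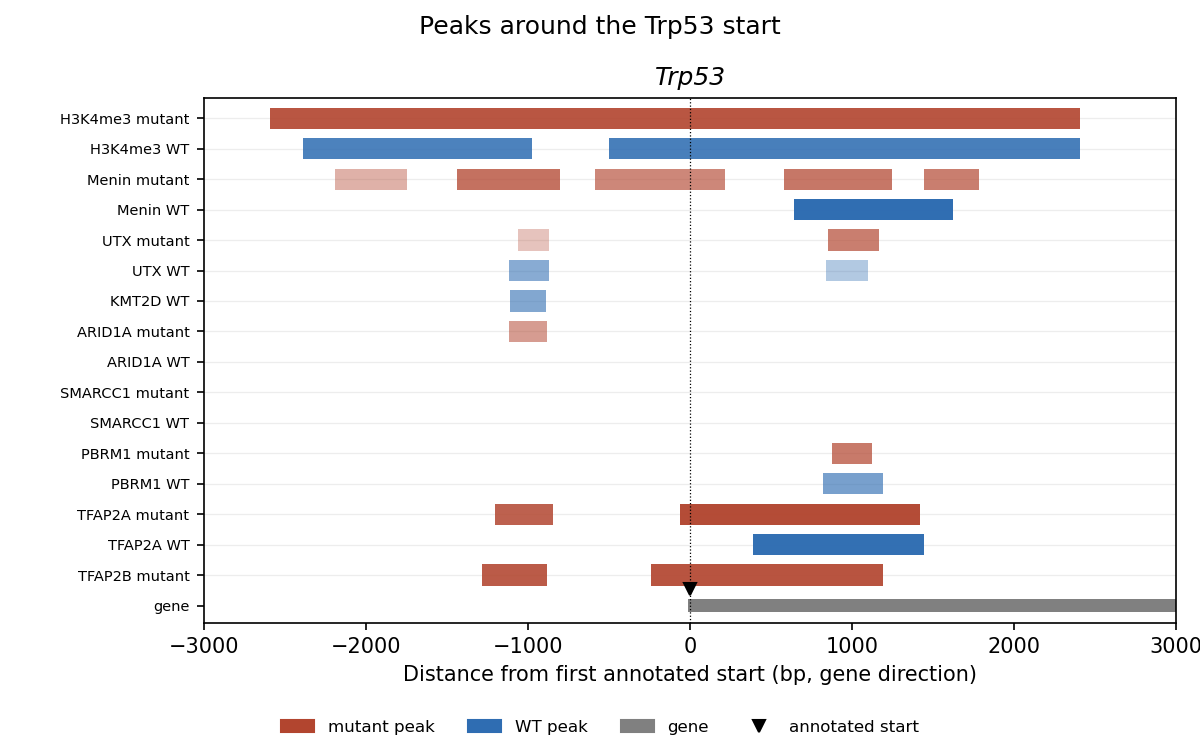
Peaks of each list around the Trp53 start, with distance from the annotated start in bp on the horizontal axis and 1 list per row, mutant (red) above WT (blue); darker bars rank higher in their list, and the grey bar is the gene. Factor peaks line up near −1056 bp, where KMT2D lies in the WT line, and near 1062 bp, where UTX, PBRM1 and TFAP2A lie in both.

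Mdm2 (chr10:117688875-117710758, minus strand) carried a high-ranking H3K4me3 peak in each list, with a fold enrichment of 43.2 in the mutant line (rank 98.0) and 24.5 in the WT line (rank 95.3). A pair of Menin peaks flanked the start in both lines. The one inside the gene had a fold enrichment of 17.4 in the mutant line (rank 96.1) and 7.66 in the WT line (rank 61.4). The upstream one had 9.97 in the mutant line (rank 78.2) and 8.7 in the WT line (rank 70.7). TFAP2A had a summit at −783 bp in the mutant line and at −756 bp in the WT line, with ranks of 45.2 in the mutant line and 38.9 in the WT line. At the start itself TFAP2A (209 bp, fold enrichment 11.9, rank 66.6), TFAP2B (276 bp, 7.11, rank 48.0) and ARID1A (579 bp, 6.5, rank 26.7) were called in the mutant line, and the WT lists of TFAP2A and ARID1A had no peak there. The TFAP2A and ARID1A peaks remained at equal depth. Farther upstream ARID1A lay at the same 2 places in both lines. Its fold enrichment was 14.3 at −7065 bp in the mutant line and 10.1 at −7028 bp in the WT line. At the farther place, −10865 bp in the mutant line and −10815 bp in the WT line, it was 21.1 in the mutant line and 13.2 in the WT line. Beyond the far end of the gene the mutant line alone had H3K4me3 at 33925 bp (7.06, rank 22.5) and ARID1A at 33049 bp (9.05, rank 46.2). Neither UTX nor KMT2D had a peak anywhere in the Mdm2 locus.

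Mdm4 (chr1:132986105-133030587, minus strand) has 2 annotated starts, and the second, 5171 bp inside the gene, was the one with peaks. H3K4me3 covered it from 4290 to 6797 bp in the mutant line (fold enrichment 17.7, rank 53.2) and from 4229 to 6396 bp in the WT line (18.5, rank 79.5). Menin peaked at 5143 bp in the mutant line (14.5, rank 92.6) and at 5138 bp in the WT line (12.9, rank 90.6). TFAP2A peaked at 5264 bp in the mutant line (26.9, rank 88.7) and at 5329 bp in the WT line (14.9, rank 74.2), and TFAP2B at 5300 bp in the mutant line (9.87, rank 67.9). Each line had H3K4me3 and Menin at a second place, between −3308 and −2542 bp, upstream of the first start. The first start had no peak within 1 kb in any list. Both lines also had weaker TFAP2A and Menin peaks farther inside the gene, between 9878 and 10452 bp, of which the mutant Menin peak was lost at equal depth. ARID1A, UTX and KMT2D had no peak in the locus.

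Cdkn1a (chr17:29090979-29100722, plus strand) encodes p21, the inhibitor of cyclin-dependent kinases that carries out p53-driven arrest. Here too the second annotated start, 2790 bp inside the gene, held the peaks. H3K4me3 ran from 2466 to 5655 bp in the mutant line (fold enrichment 36.9, rank 93.7). In the WT line it was split into a peak from 2413 to 4159 bp (16.7, rank 72.8) and one from 4742 to 5218 bp (8.31, rank 35.2). Beside that start the mutant line had Menin at 2678 bp (8.25, rank 66.6) and at 4016 bp (5.97, rank 40.5), TFAP2B at 4027 bp (8.88, rank 61.5) and ARID1A at 4518 bp (14.3, rank 70.2). The WT line had no Menin or ARID1A peak there, and all 3 mutant peaks of those targets remained at equal depth. TFAP2A was called in both lines, at 4060 bp in the mutant line (11, rank 63.6) and at 3984 bp in the WT line (6.29, rank 25.9). The first start, whose promoter holds the 2 half-sites printed above, had no peak within 1 kb in any list.

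A distal Cdkn1a site, between −13085 and −11618 bp, was called in 8 lists. It held H3K4me3 and Menin in both lines, KMT2D in the WT line (summit at −11895 bp, fold enrichment 5.8, rank 19.3), and ARID1A, TFAP2A and TFAP2B in the mutant line. TFAP2A peaked there at −11896 bp in the mutant line (7.52, rank 42.9), 1 bp from the WT KMT2D summit. The mutant ARID1A and Menin peaks of this site and 1 of its 2 TFAP2A peaks were lost at equal depth. UTX was called at this site in neither line.

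**Figure D3:**
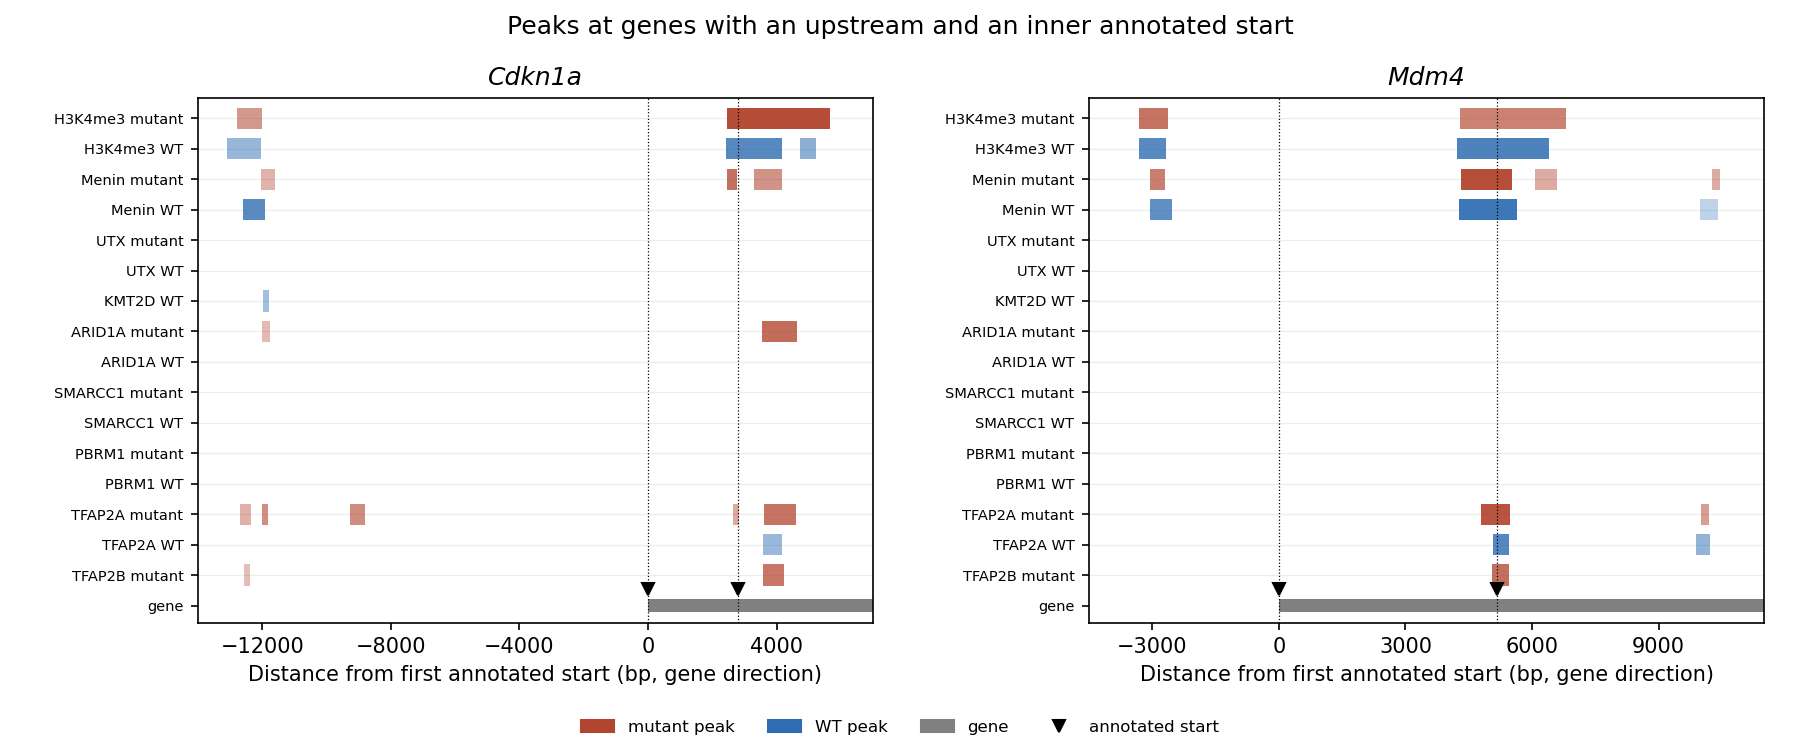
Peaks of each list at Cdkn1a and Mdm4, with distance from the first annotated start in bp on the horizontal axis, 1 list per row, mutant (red) above WT (blue), and triangles at the 2 annotated starts; darker bars rank higher in their list. At both genes the H3K4me3 peaks of both lines cover the second start, 2790 bp inside Cdkn1a and 5171 bp inside Mdm4, and leave the first without a peak.

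A start with H3K4me3 at a gene without gene-end H3K4me3 was found at 3.9% of 17491 genes in the mutant line and 3.85% in the WT line. Among the 8 members with a start in the table it was found at Mdm4 and Cdkn1a.

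Ccng1 (chr11:40748552-40755309, minus strand), the gene of cyclin G1, carried H3K4me3 at its start in the mutant line (fold enrichment 22.9, rank 67.0) and in the WT line (15.7, rank 69.0). Menin sat at the start with a high rank in both, at −88 bp in the mutant line (15.3, rank 93.8) and at −119 bp in the WT line (18.1, rank 97.8). No other target had a peak there. The remaining peaks of the locus, 4 of 6 in the mutant line and 5 of 7 in the WT line for the paired targets, lay at or near the ends of the neighbouring genes Nudcd2 and Hmmr.

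Sesn2 (chr4:132492804-132510456, minus strand) encodes sestrin 2, a stress protein that restrains mTORC1 signalling. Its H3K4me3 peak ranked 97.8 in the mutant line (fold enrichment 42.5) and 99.1 in the WT line (29.5). Menin at the start had a fold enrichment of 5.97 in the mutant line (rank 40.5) and 13.5 in the WT line (rank 92.5). ARID1A (7.62, rank 35.3), TFAP2A (6.07, rank 33.9) and a weak UTX peak (3.76, rank 4.53) lay just upstream of or across the start in the mutant line and not in the WT line. The UTX peak was lost at equal depth and the other 2 remained. The WT line had a weak KMT2D peak at −75 bp (4.41, rank 6.86).

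The strongest KMT2D peak of any member lay upstream of Sesn2. In the WT line KMT2D peaked at −5178 bp (fold enrichment 16.3, rank 78.7), together with UTX at −5185 bp (19.0, rank 80.4), Menin at −5172 bp (19.6, rank 98.5) and ARID1A at −5223 bp (9.53, rank 53.3). In the mutant line Menin stood at −5188 bp (13.4, rank 90.6) and ARID1A at −5225 bp (18.6, rank 81.2), and UTX was not called. H3K4me3 beside this site was low in both lists, with a fold enrichment of 5.09 in the mutant line (rank 10.7) and 6.07 in the WT line (rank 23.0). A second distal site, from 33751 to 34375 bp, beyond the far end of the gene, had ARID1A in the mutant line. In the WT line it had ARID1A, UTX, KMT2D and the only SMARCC1 peak in any of the 9 loci (7.16, rank 44.4).

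Bax (chr7:45461695-45466903, minus strand) encodes a protein that permeabilises the outer mitochondrial membrane in apoptosis. H3K4me3 at its start had a fold enrichment of 33.3 in the mutant line (rank 89.2) and 21.0 in the WT line (rank 88.1). TFAP2A peaked there at 184 bp in the mutant line (11.5, rank 64.9) and at 261 bp in the WT line (7.33, rank 36.5), and TFAP2B at 327 bp in the mutant line (5.28, rank 22). The other gene-end peaks of Bax lay around its 3′ end, which faces the neighbouring gene Ftl1. There the WT line had KMT2D at 5881 bp (7.54, rank 36.6) and UTX at 5868 bp (8.58, rank 43.4). The mutant line had TFAP2A at 5867 bp (8.44, rank 49.2), TFAP2B at 5814 bp (5.75, rank 32.3) and ARID1A at 5731 bp (7.13, rank 30.2), and no UTX. A mutant Menin peak near the 3′ end ranked 4.04 in its list and was lost at equal depth.

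Bbc3 (chr7:16308398-16318334, plus strand) encodes PUMA, a BH3-only protein that triggers apoptosis. Its first annotated start lies 1185 bp inside the annotated gene. A single H3K4me3 peak covered its 3 annotated starts in each line, from −290 to 4427 bp in the mutant line (fold enrichment 32.7, rank 88.4) and from −264 to 3387 bp in the WT line (16.1, rank 70.3). Bbc3 was the only member with gene-end ARID1A in both lines, at −299 bp in the mutant line (10.3, rank 53.7) and at −350 bp in the WT line (6.71, rank 30.3). TFAP2A lay across the first start in both, with a fold enrichment of 23.0 in the mutant line (rank 85.9) and 12.2 in the WT line (rank 66.3).

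The densest site of Bbc3 was inside the gene, downstream of its starts. KMT2D peaked there at 3519 bp in the WT line (fold enrichment 12.2, rank 66.9). UTX was called in both lines with summits 40 bp apart, at 3485 bp in the mutant line (13.1, rank 82.4) and at 3525 bp in the WT line (14.1, rank 70.0). TFAP2A reached a fold enrichment of 42.4 in the mutant line (rank 95.2) and 28.3 in the WT line (rank 91.3). ARID1A covered it from 3261 to 4620 bp in the mutant line and from 3261 to 4603 bp in the WT line. An upstream site, near −14050 bp, held TFAP2A and a weak ARID1A peak in both lines, KMT2D and UTX in the WT line, and TFAP2B in the mutant line. The mutant ARID1A peak of that site was lost at equal depth. Menin was called at Bbc3 in the mutant line only, at 3 places, of which the one at 3654 bp (6.54, rank 48.8) remained at equal depth.

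**Figure D4:**
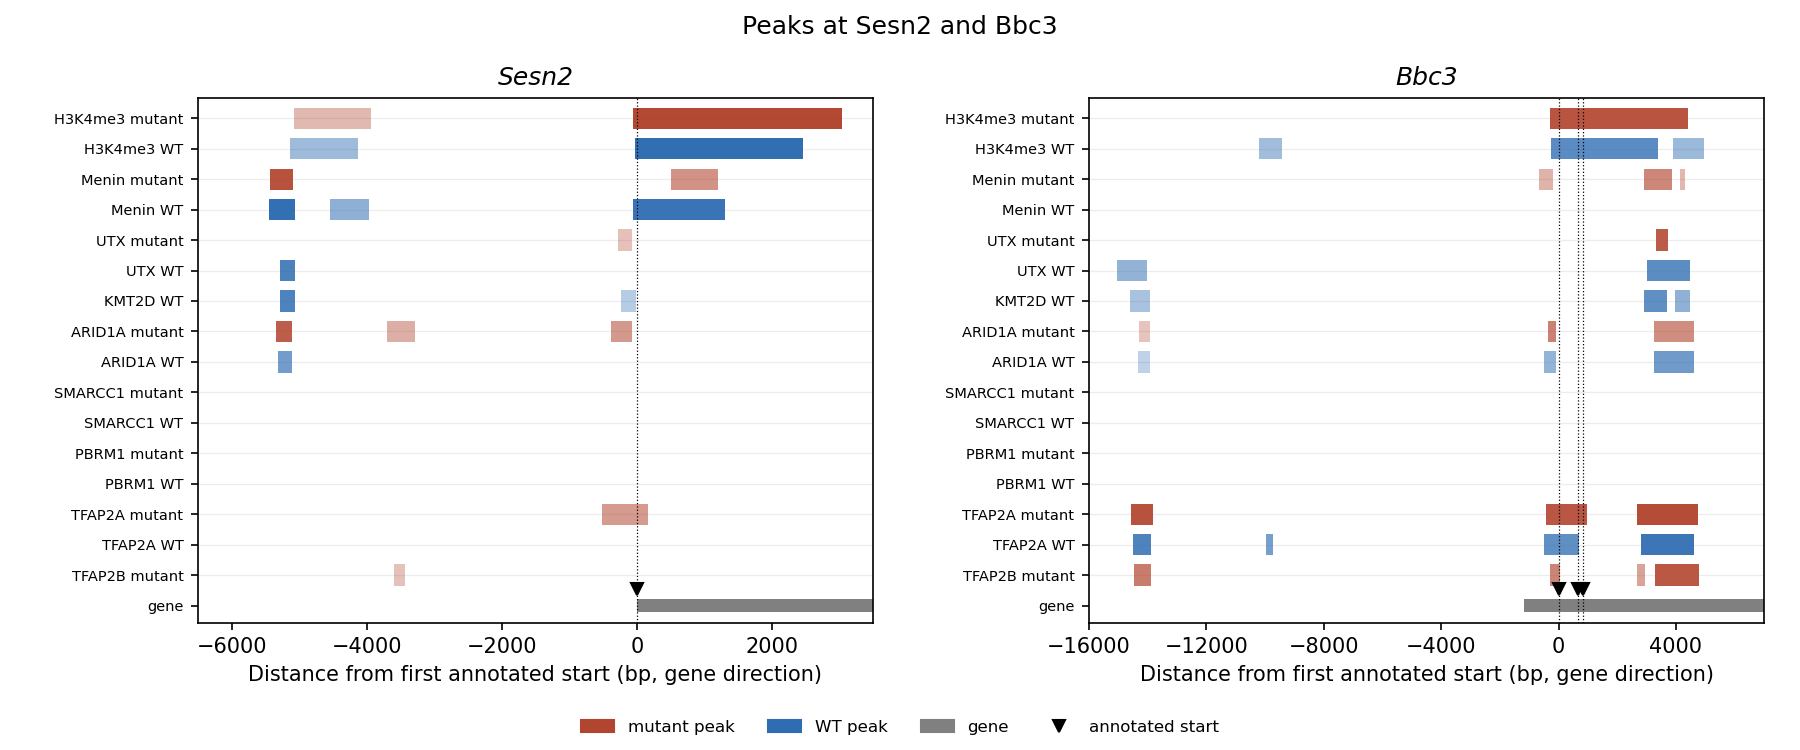
Peaks of each list at Sesn2 and Bbc3, with distance from the first annotated start in bp on the horizontal axis, 1 list per row, mutant (red) above WT (blue), and triangles at annotated starts; darker bars rank higher in their list. At the upstream Sesn2 site UTX and KMT2D are called in the WT line and ARID1A and Menin in both lines, while at the Bbc3 site inside the gene UTX is called in both lines.

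Zmat3 (chr3:32334792-32365665), the gene of a zinc-finger protein that binds RNA, was marked at its higher-coordinate end, from which positions are given because the table has no start for it. H3K4me3 had a fold enrichment of 32.6 in the mutant line (rank 88.1) and 28.0 in the WT line (rank 98.5). Menin was the only other target at that end, with 2 gene-end peaks in each line. It had fold enrichments of 7.83 and 5.37 in the mutant line and 7.14 and 7.66 in the WT line. The mutant peak of 5.37 was lost at equal depth. ARID1A was called in the WT line only, at 2 places in the locus (fold enrichments of 4.3 and 8.83).

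KMT2D, profiled in the WT line, had 10 peaks in the 9 loci: 3 at Sesn2, 3 at Bbc3, 2 at Bax, 1 at Trp53 and 1 at Cdkn1a. None were at Mdm2, Mdm4, Ccng1 or Zmat3. In the mutant line 3 of the 10 places overlapped a UTX peak, and in the WT line 7, beside 60.6% in the mutant line and 88.3% in the WT line for all 6434 KMT2D peaks. At equal depth the mutant UTX count was 1, at Bbc3 (56.1% of all KMT2D peaks). ARID1A overlapped 9 of the 10 in the mutant line and 5 in the WT line (84.3% of all KMT2D peaks in the mutant line and 87.7% in the WT line). At equal depth the mutant ARID1A count was 7 (82.6%). TFAP2A overlapped 8 in the mutant line and 4 in the WT line (64.3% of all KMT2D peaks in the mutant line and 57.7% in the WT line). At equal depth the mutant TFAP2A count was the same (58.5%). H3K4me3 overlapped 6 in each line (37.2% of all KMT2D peaks in the mutant line and 34.7% in the WT line), and Menin 5 in the mutant line and 3 in the WT line (36.6% in the mutant line and 37.7% in the WT line). At equal depth Menin overlapped 3 in each line, beside 29.1% of all KMT2D peaks in the mutant line. SMARCC1 overlapped none in the mutant line and 1 in the WT line. Over all KMT2D peaks its share was 13.8% in the mutant line and 48.0% in the WT line (38.2% at equal depth). With 10 places these counts are a description.

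Over the 9 paired targets the loci held 89 peaks in the mutant line and 69 in the WT line. At equal depth they held 74 in the mutant line and 69 in the WT line. More mutant than WT peaks were counted at 5 members (Trp53, Mdm2, Cdkn1a, Sesn2 and Bax), and at 42.9% of all genes. Ccng1 and Zmat3 had more WT peaks, as did 20.5% of all genes, and Mdm4 and Bbc3 had equal numbers (12.7%). At equal depth 4 members had more mutant peaks (Trp53, Mdm2, Cdkn1a and Bax; 29.4% of all genes) and 4 had more WT peaks (Mdm4, Ccng1, Bbc3 and Zmat3; 30.6%). Sesn2 then had 10 in each line, Mdm4 7 in the mutant line and 9 in the WT line, and Bbc3 9 in the mutant line and 12 in the WT line. The widest gaps were at Mdm2, with 14 peaks in the mutant line (13 at equal depth) and 6 in the WT line, and at Cdkn1a, with 13 in the mutant line (9 at equal depth) and 5 in the WT line. At Zmat3 the mutant line had 4 (3 at equal depth) and the WT line 7. By target, ARID1A had 18 peaks in the mutant line (16 at equal depth) and 10 in the WT line. TFAP2A had 22 in the mutant line (19 at equal depth) and 13 in the WT line. Menin had 26 in the mutant line (18 at equal depth) and 17 in the WT line. UTX ran the other way, with 4 in the mutant line (2 at equal depth) and 7 in the WT line. H3K4me3 had 18 in the mutant line and 20 in the WT line. As deposited, the whole ARID1A list held 25385 peaks in the mutant line and 22199 in the WT line. For TFAP2A it held 18530 in the mutant line and 11636 in the WT line. For Menin it held 16773 in the mutant line and 13481 in the WT line. The UTX list had 9707 in the mutant line and 9712 in the WT line. The H3K4me3 list had 16438 in the mutant line and 14666 in the WT line.

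**Figure D5:**
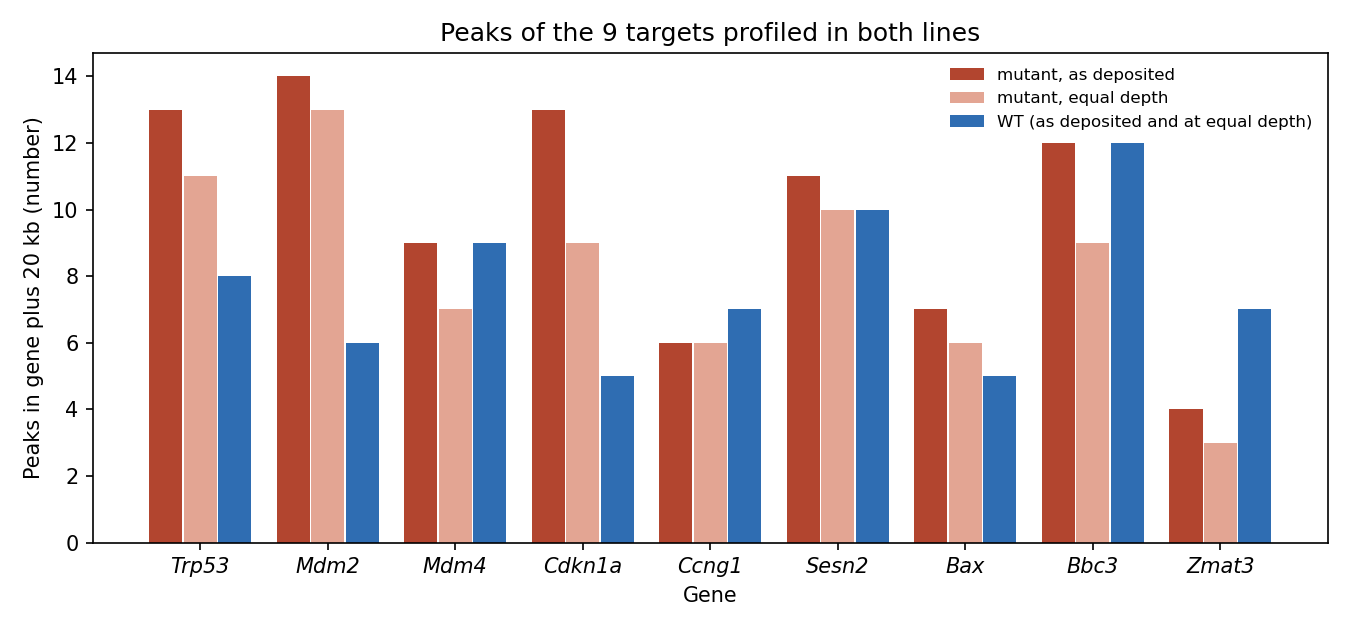
Bars give, for each gene, the number of peaks of the 9 paired targets in the gene plus 20 kb: mutant as deposited (dark red), mutant at equal depth (light red) and WT (blue), whose counts are the same at equal depth. Mdm2 has 14, 13 and 6 peaks in that order and Zmat3 4, 3 and 7.

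Of the gene-end peaks of these targets, 22 of 36 in the mutant line overlapped a peak of the same target in the WT line. In the WT line 23 of 24 overlapped one in the mutant line, the exception being UTX at the 3′ end of Bax. The mutant share was 61.1%, and 66.7% at equal depth. The WT share was 95.8%, and 87.5% at equal depth. The upstream Trp53 UTX peak and a Zmat3 Menin peak of the WT line then had lost their mutant partners too. The share over all gene-end peaks was not counted. Over the whole loci 59.6% of the mutant peaks were shared (95% Wilson interval 49.2 to 69.1, counting error only), beside 63.2% of all mutant peaks with each target weighted by its number of peaks in the loci. In the WT line 81.2% were shared (70.4 to 88.6), beside 78.0% of all WT peaks weighted in the same way. These whole-locus shares were not counted at equal depth. Merged across lists, the 182 peaks formed 34 sites, of which 22 were called in both lines, 9 in the mutant line only and 3 in the WT line only. At equal depth there were 33 sites, 22 in both lines, 8 in the mutant line only and 3 in the WT line only. A site counted as in both lines whatever the target, and the KMT2D and TFAP2B lists of 1 line were included. The Bax site from 5537 to 6015 bp, for example, had no target in common. It held ARID1A, TFAP2A and TFAP2B in the mutant line and KMT2D and UTX in the WT line. Such sites were not counted over all genes.

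A wider set of 48 pathway genes was counted in the same way. They comprised 13 arrest and repair targets, 13 apoptosis and signalling targets, 7 metabolism and redox targets and 15 regulators and relatives of p53. Gene-end H3K4me3 was at 44 in the mutant line and 42 in the WT line, Rprm and Perp being marked in the mutant line only. No gene-end peak of any list was found at Pank1, Cdkn2a, Usp7 or Trp63. ARID1A was at 23 in the mutant line and 15 in the WT line. The 8 genes with it in the mutant line only were Btg2, Plk2, Gtse1, Sfn, Rprm, Pidd1, Apaf1 and Phlda3, and none had it in the WT line only. At equal depth all of these but Phlda3 had it in the mutant line only, beside 6.88% of all genes. Of these 8, 5 were arrest and repair targets and 3 apoptosis and signalling targets. ARID1A was at 12 of the 13 arrest and repair targets in the mutant line and 7 in the WT line. Among the 13 apoptosis and signalling targets it was at 3 in the mutant line and 0 in the WT line. Such a split has no share over all genes to set beside it. Gtse1, a microtubule-associated antagonist of p53, had the highest ARID1A fold enrichment of the 8 in the mutant line (12.9). Phlda3, an inhibitor of AKT signalling, had the lowest (3.67).

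Menin was at 30 of the 48 in the mutant line and 27 in the WT line. It was in the mutant line only at Pmaip1, Aen, Eda2r, Tigar, Sco2 and Kat5, and in the WT line only at Plk2, Ei24 and Chek1. At equal depth Menin was at 22 in the mutant line and 27 in the WT line. Aen and Eda2r had it in the mutant line only (4.75% of all genes), and 7 genes in the WT line only (5.09%). TFAP2A was at 32 in the mutant line and 25 in the WT line, with Btg2, Rrm2b, Fas, Ephx1, Atr, Kat5 and Trp73 in the mutant line only. At equal depth it was at 27 in the mutant line and 25 in the WT line. Btg2, Rrm2b, Atr and Kat5 had it in the mutant line only (6.56% of all genes), and Sco2 and Ppm1d in the WT line only (2.54%). UTX was at 10 in the mutant line and 13 in the WT line. Gadd45a, Ptpn14, Ephx1 and Rchy1 had UTX in the WT line only and Apaf1 in the mutant line only. At equal depth UTX was at 6 in the mutant line and 13 in the WT line. Then 7 genes had UTX in the WT line only (5.06% of all genes) and none in the mutant line only (1.43%). KMT2D was at 13 in the WT line: the arrest and repair targets Sesn1, Xpc, Rrm2b, Polk and Ptpn14, the apoptosis gene Apaf1, the metabolic genes Ddit4, Fdxr and Ephx1, and the regulators Ppm1d, Rchy1, Atm and Chek2. Of the 4 genes with UTX in the WT line only, 3 were also KMT2D genes (Ptpn14, Ephx1 and Rchy1), beside 61.2% of the 960 genes with UTX in the WT line only over all genes. At equal depth it was 4 of 7, beside 62.6% of 1107. The percentages of all genes given above for each list apply to the counts as deposited. For gene ends at equal depth, only the shares in 1 line only were counted over all genes. As 42 of the 48 genes had gene-end H3K4me3 in both lines, the shares among such genes are the nearer comparison. For Menin these were 76.2% in the mutant line and 63.8% in the WT line, as deposited. For ARID1A they were 38.9% in the mutant line and 29.1% in the WT line, and for TFAP2A 65.1% and 48.3%. For UTX they were 17.1% in the mutant line and 21.3% in the WT line, and for KMT2D 19.8% in the WT line.

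The genes most like Trp53 in their rank of gene-end fold enrichment over the 22 lists were Supt16 (Pearson r = 0.9), Zfp668 (0.89) and Zfp646 (0.89). Those most like Mdm2 were Ssr1 (0.98), Otud6b (0.98) and Mrpl51 (0.97). The 22 lists share 2 cell lines and differ in depth, so these values are descriptions. Cdkn1a, without a gene-end peak in any list, gave no such value.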

How the data were processed

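The peak lists were deposited by the authors as 22 MACS2 narrowPeak tables on mm10, and FastQC, MultiQC and Bowtie2 are also named, per the submitters' processing notes. Their versions and settings, and the caller's control, are not given in the sources used here. The columns used were the deposited score, the fold enrichment at the summit (a ratio, per the authors), and −log10 of p and of q as deposited. The 2 IgG samples were not analysed here. Peaks were assigned to genes of the GRCm38.p6 RefSeq table by position, and peaks of 2 lists counted as shared with an overlap of at least 1 bp. The table gives no exons, so peaks are placed relative to annotated ends and starts. The equal-depth lists used fragments and background recovered from the fold enrichment and p of each summit: the deeper list of a pair was scaled down, and peaks then under the lowest −log10 p of the other list were dropped. Recovery and gene assignment were tested on simulated data. No test was possible with 1 library per line and target. Alternatives were other windows, annotated starts, a −log10 q of at least 5, equal depth, leaving out widely called regions or SMARCC1, and a stricter overlap. Equal depth for the KMT2D overlaps, locus classes, merged sites, starts and wider genes, and the target weighting of shared peaks, were added after seeing the data. All 9 members are named; wider genes are named where their gene-end presence differs between lines for H3K4me3, Menin, UTX, TFAP2A or ARID1A, or where KMT2D is present. The members and lists were chosen with earlier results of these data known. Software was Matplotlib 3.10.9, SciPy 1.17.1, pandas 2.3.3 and NumPy 2.4.6 under Python 3.11.15.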

Additional observations from a re-analysis of the deposited data

How the results depend on the processing

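With 1 library per line and target, depth and the choice of window limit what these lists show. Summed over the 9 paired targets, the members' gene-end calls in the WT line numbered 20, and 13 with a window of 0.5 kb. Calls in the mutant line only numbered 8, and 5 with a −log10 q of at least 5 as well as at equal depth: Menin at Bax and Bbc3 and UTX at Sesn2 were lost under both. Calls in the WT line only numbered 1, and 2 with a window of 2.5 kb, 2 with a window of 0.5 kb and 0 at annotated starts. Mutant minus WT peaks in the loci numbered 20, and 8 with a −log10 q of at least 5 and 5 at equal depth. This difference stayed positive in every alternative run for it. The other results set against alternatives were counts or shares, which cannot change sign. In the wider set, Menin was at 30 genes in the mutant line and 27 in the WT line. At equal depth the order changed, with 22 in the mutant line and 27 in the WT line. The order stayed the same there for H3K4me3, UTX, ARID1A and TFAP2A. Of the alternative values of the summed member results, 47 stayed within 1.5 times of the main value (shares within its 95% Wilson interval) and 8 did not. Of the counts for single targets 83 did and 18 did not, 10 of these with the window of 0.5 kb. Both tallies include the setting that left out regions called in 15 or more lists. It could change no value, as no member peak lay in such a region. No paired analysis was possible because the samples carry no replicate numbers and no test was run.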
